A study of Mus musculus with 8 samples.

Results

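The 9 genes described here encode proteins that write, read or answer to repressive chromatin, and they were chosen by name among 21887 protein-coding genes of the mouse RefSeq annotation. They are Phc2, Rybp, Cbx2 and Cbx8 of Polycomb repressive complex 1, Phf19 of Polycomb repressive complex 2, the DNA methyltransferase genes Dnmt3a and Dnmt3b, and the cell cycle inhibitor genes Cdkn2a and Cdkn2b. A gene's members are all the regions of the authors' deposited table that overlap its RefSeq span extended by 2 kb on both sides. By this rule 6 of the 9 genes carry at least 1 region, with 56 regions in all, and Cbx2, Cdkn2a and Cdkn2b carry none. Over all protein-coding genes, 31.2% carry a region. The genes were picked with earlier results of these data known, so the count of 6 is a description.

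The table comes from H3K27me3 chromatin immunoprecipitation and sequencing of 3T3 cells, an immortalised line of mouse embryonic fibroblasts. One group carried a control construct and the other an NNMT overexpression construct, with 3 immunoprecipitated libraries, called biological replicates by the submitters, and 1 input library per construct. All cells were kept for 48 h in medium without methionine to which 10 µM methionine and 10% dialyzed serum were added. NNMT, nicotinamide N-methyltransferase, uses up S-adenosylmethionine, the methyl donor of histone and DNA methyltransferases, and the design compares the mark between cells with and without the extra enzyme. The labels do not say which promoter drives the construct or whether the cells are a single clone. The table holds no expression values, so fibroblast identity and the level of NNMT were not checked here. Each region has 3 values in a set of libraries listed first, called set A, and 3 in a set listed second, called set B. No source used here says which set is NNMT, so no direction is tied to a construct, and the order of libraries within a set is unknown. All values are from the authors' deposited table. They are given per library, and the error of a ratio is its lowest and highest value among the 9 pairings of libraries across sets.

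Polycomb repressive complex 2 places methyl groups on lysine 27 of histone H3, and complex 1 binds the mark through its CBX subunits and compacts chromatin. In mammals both complexes gather at CpG islands of silent genes, and several genes of the Polycomb machinery are themselves targets of the mark. The Cdkn2a and Cdkn2b genes are classical targets in fibroblasts, where Polycomb silencing holds back senescence. DNMT3A and DNMT3B set new DNA methylation, a second silencing system that tends to avoid CpG islands covered by Polycomb.

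The sequences upstream of the annotated starts show where listed regions stop. RefSeq, build GRCm38.p6, gives promoter windows for 7 of the 9 genes, not for Rybp or Cbx2, with 12 windows in all. Printed here are the 250 bases before the start for 5 windows, 5′ to 3′ on the gene's strand, with capitals for bases inside a listed region and lower case for the rest. The 3 starts of Phc2, numbered in the direction of transcription, differ in cover, and those of Phf19 and Dnmt3b lie close to listed regions without being covered.
Phc2, start 1, chr4:128654452-128654701, plus strand: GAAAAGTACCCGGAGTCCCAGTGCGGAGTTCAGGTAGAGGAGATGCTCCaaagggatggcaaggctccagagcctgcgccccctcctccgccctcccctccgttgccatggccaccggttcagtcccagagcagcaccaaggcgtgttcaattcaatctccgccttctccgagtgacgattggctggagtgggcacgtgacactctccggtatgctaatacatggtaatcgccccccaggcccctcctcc
Phc2, start 2, chr4:128688488-128688737, plus strand: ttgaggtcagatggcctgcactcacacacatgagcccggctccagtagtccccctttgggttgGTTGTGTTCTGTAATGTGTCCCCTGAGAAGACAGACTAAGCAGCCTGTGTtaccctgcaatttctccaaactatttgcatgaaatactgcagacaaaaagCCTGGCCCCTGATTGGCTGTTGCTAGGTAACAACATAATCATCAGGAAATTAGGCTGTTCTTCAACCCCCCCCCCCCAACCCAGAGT
Phc2, start 3, chr4:128727321-128727570, plus strand: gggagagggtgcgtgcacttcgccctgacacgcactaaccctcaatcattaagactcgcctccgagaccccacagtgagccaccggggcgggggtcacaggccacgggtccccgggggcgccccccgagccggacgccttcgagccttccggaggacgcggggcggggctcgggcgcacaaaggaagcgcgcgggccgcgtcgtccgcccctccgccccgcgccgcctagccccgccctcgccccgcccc
Phf19, chr2:34913977-34914226, minus strand: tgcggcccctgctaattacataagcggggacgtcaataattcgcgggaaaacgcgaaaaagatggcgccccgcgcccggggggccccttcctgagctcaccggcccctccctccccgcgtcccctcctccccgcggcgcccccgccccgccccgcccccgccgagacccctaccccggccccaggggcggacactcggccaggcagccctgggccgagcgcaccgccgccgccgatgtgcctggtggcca
Dnmt3b, chr2:153649199-153649448, plus strand: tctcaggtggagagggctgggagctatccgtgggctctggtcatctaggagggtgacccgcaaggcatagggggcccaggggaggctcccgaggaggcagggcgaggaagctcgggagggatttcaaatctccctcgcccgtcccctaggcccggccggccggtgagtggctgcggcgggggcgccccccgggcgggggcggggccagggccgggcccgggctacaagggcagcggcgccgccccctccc

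Among the 12 windows, start 2 of Phc2 is the only start base inside a listed region, and its upstream sequence holds 1 CG dinucleotide. Of its 250 bases, 137 are in capitals. Start 1 of Phc2 has 13 CG and 49 covered bases, all at the upstream end. Start 3 of Phc2 has 34 CG, Phf19 has 31 and Dnmt3b has 21, and none of their upstream bases is covered. Across all 32851 windows, 8.87% of starts are inside a listed region. With 0 to 4 CG in the upstream 250 bases the share is 13.4%, with 5 to 19 it is 7.30%, and with 20 or more it is 0.882%. CG was counted as the letters CG, which read the same on both strands. The table lists differences between the sets only, so an uncovered start may carry the mark at like levels in both sets or not carry it.

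The listed regions of the 6 genes were mostly higher in set A. Of the 56 regions, 53 had the higher sum in set A, against 59.5% of all 265968 listed regions, and 3 had it in set B, against 40.5%. All 3 values of a set lay above all 3 of the other, here called separated, in 47 regions, against 65.1% of the table. A ratio of 2-fold or more towards set A, which is a log2 ratio of 1 or more, was found in 28 regions, against 21.8%. The median log2 ratio was 1.00 over the 56 regions and 0.42 over the table. Phc2 alone gives 35 of the 56. Without it, 18 of 21 regions (85.7%) were higher in set A, 14 (66.7%) were separated and the median log2 ratio was 0.46. The separated share and the median were then near those of the table, 65.1% and 0.42.

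No p-value is given for these genes. A two-sided exact permutation test of 3 libraries against 3 cannot go below 0.10, and regions entered the authors' table because they differed. Summed over the table, the libraries of set A reach 39899303 to 41971892 and those of set B 35565866 to 36958436, a shift of 0.19 on the log2 scale. Ratios are read against that shift. The table holds no library totals, so sequencing depth is unknown, and whether the values were corrected for the inputs is unknown here. A difference in DNA dosage and one in the mark cannot be told apart, and neither can fewer cells with the mark and less of it per cell.

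Phc2, which encodes a polyhomeotic subunit that lets complex 1 assemble into larger clusters, had the highest summed values of the 9 genes (chr4:128654655-128752881). Its 35 regions, which cover 52.0% of the span, were all higher in set A, and 33 were separated. Among the 1461 genes with at least 20 regions, 21.4% had every region higher in set A. Summed over them, the values were 25962, 25658 and 25027 in set A and 15149, 15602 and 15357 in set B. The sets do not overlap, and the ratio was 1.66 (1.60 to 1.71 over pairs). Of the 6833 genes with a region, 133 (1.95%) had a sum as high as that of Phc2, whereas 26.5% had a log2 ratio as high as its 0.73. The sum counts regions in full, also a region of 32600 bp that lies outside the span. That region gives 32929 of 76647 in set A and 21442 of 46108 in set B, so the rank is not that of the gene alone. With no flank the log2 ratio of Phc2 was 0.83.

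**Figure D1:**
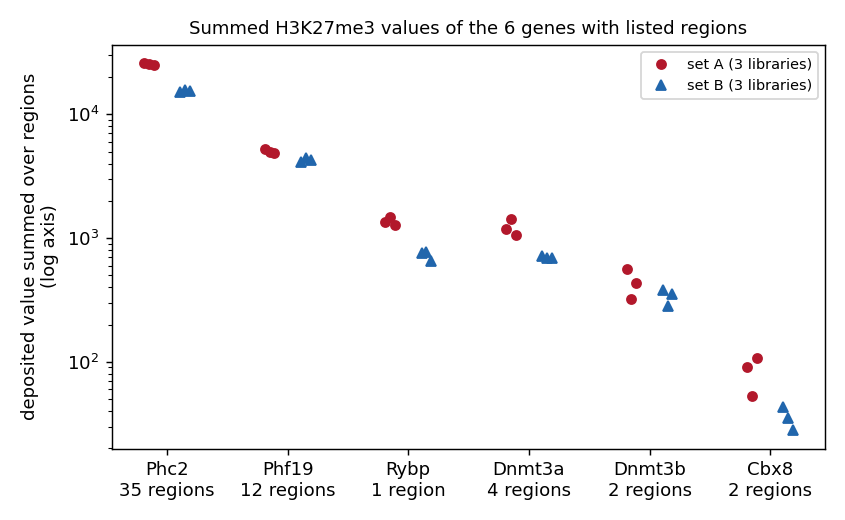
Deposited values summed over the listed regions of each gene (log axis), with circles for the 3 libraries of set A and triangles for the 3 of set B. Phc2 lies highest, at 25027 to 25962 in set A and 15149 to 15602 in set B, and Dnmt3b is the gene whose sets overlap.

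A pair of very long regions frames the first start of Phc2. The upstream one (chr4:128621901-128654500) is 32600 bp long and ends 202 bp before the start, and its values were 11127, 10900 and 10902 in set A and 7037, 7522 and 6883 in set B, a ratio of 1.54 (1.45 to 1.62 over pairs). The one inside the gene (chr4:128655101-128677950) begins 399 bp after the start, with 8019, 8085 and 7648 in set A and 5083, 5078 and 5323 in set B, a ratio of 1.53 (1.44 to 1.59). Both are separated and nearly equal in ratio. Only 5 regions of the table are as long as the first, itself included, and 23 as long as the second. The start itself, with the lower-case bases of its printed sequence, falls between them.

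Further into Phc2 the ratio was larger. Both sets stood lower there per kb, and set B more so. In the first 25 kb after the start the mean value per kb of listed region was 338 in set A and 218 in set B. From 25 to 50 kb it was 221 and 107, a ratio of 2.06 (1.94 to 2.23 over pairs). From 50 to 80 kb it was 250 and 98.4, a ratio of 2.54 (2.33 to 2.81), against 1.55 (1.45 to 1.61) in the first 25 kb. The pair ranges of the 3 stretches do not overlap. Regions past 25 kb are also shorter, and across the table short listed regions had larger ratios. Over all regions higher in set A, the median log2 ratio was 1.63 at 50 to 100 bp and 0.50 at 5000 bp or longer. The regions of Phc2 stood at medians of 1.56 and 0.62 in these length classes. At 500 to 950 bp the medians were 1.21 for 5 regions of Phc2 and 0.62 for the table, and at 1000 to 4950 bp they were 1.04 for 6 regions and 0.47. How much of the pattern within Phc2 goes with region length was not tested further.

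**Figure D2:**
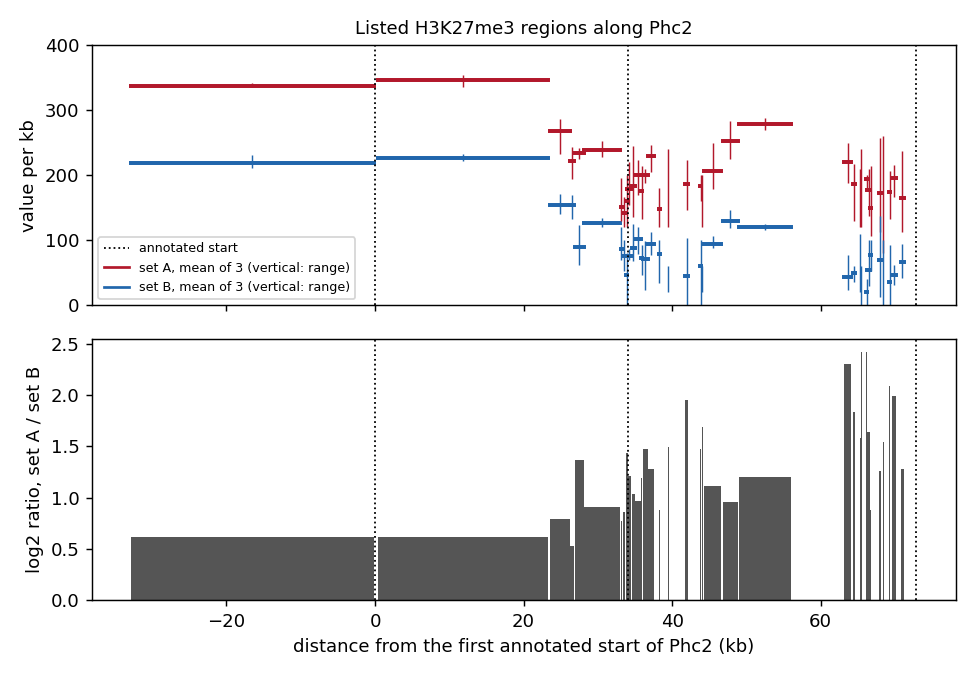
Listed regions along Phc2 by distance in kb from its first annotated start, with the value per kb of each region (upper panel, line for the mean of 3 libraries and vertical line for their range) and the log2 ratio of set A over set B (lower panel, bar width equal to region length, with a drawn minimum of 0.15 kb). Dotted lines mark the 3 annotated starts. The mean of set A lies above that of set B in every region. The log2 ratio is 0.62 in the long regions at the first start and 0.88 to 2.42 in those beyond the region of 7000 bp.

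Some regions of Phc2 stand out by position or ratio. The region over the second start (chr4:128688651-128689150) had values of 77, 110 and 81 in set A and 43, 36 and 35 in set B, a ratio of 2.35 (1.79 to 3.14 over pairs). A region of 1050 bp lying 8721 bp before start 3 (chr4:128717801-128718850) had 261, 198 and 233 in set A and 25, 31 and 82 in set B, a ratio of 5.01 (2.41 to 10.4). Both are separated, although 1 set B library of the latter, at 82, is well above the others. Of 32799 listed regions of 0.8 to 1.25 times that length, 0.506% had as high a log2 ratio. A region of 7000 bp further upstream (chr4:128703701-128710700) had 2015, 1935 and 1888 against 845, 877 and 814, a ratio of 2.30 (2.15 to 2.48). The highest log2 ratio of the gene, 2.42, belongs to a pair of 50 bp regions with single values of 0 to 12, and the lowest, 0.53, to a region of 550 bp (chr4:128680951-128681500) with 125, 107 and 134 in set A and 73, 87 and 93 in set B. From 128725900 to the end of the gene, start 3 included, no region was listed, and the next one lies 64.3 kb past the gene.

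The direction at Phc2 was that of its surroundings. Within 5 Mb on both sides, 2204 of 2255 other listed regions (97.7%) were higher in set A, with summed values 1.61-fold higher (1.49 to 1.69 over pairs). On chromosome 4 as a whole the share was 86.0%. The range over pairs for Phc2 overlaps that of its surroundings at 5 Mb. Within 250 kb the gene stands between its sides, at 1.47-fold (1.37 to 1.55) below the gene and 2.09-fold (1.95 to 2.29) above it.

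The other genes of complex 1 carried regions in their flanks only, or none. Rybp, whose protein takes the place of the CBX subunit in variant forms of the complex, carried 1 region, which lies outside its span (chr6:100228565-100287358). This region of 5500 bp (chr6:100288801-100294300) lies above the span in coordinates, with 1442 bp between. No promoter window was given for Rybp, so whether this side is upstream or downstream of the gene was not read. The region reached 1349, 1485 and 1285 in set A and 759, 770 and 655 in set B. The sets do not overlap, and the ratio was 1.89 (1.67 to 2.27 over pairs). Of 2857 listed regions of like length, 6.65% had as high a log2 ratio. The span itself lies in a stretch of 72.4 kb with no listed region. On the side where the region lies, 123 of 128 other regions within 250 kb were higher in set A, at 1.77-fold (1.69 to 1.88), and on the far side 78 of 116, at 1.11-fold (1.02 to 1.17). Within 5 Mb, 61.5% of 2004 regions were higher in set A, at 1.11-fold (1.03 to 1.16).

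Cbx8 and Cbx2 are neighbours on chromosome 11 and encode CBX subunits that bind the methylated lysine. Cbx8 (chr11:119036303-119040913) carried 2 short regions upstream of its start and none in its span. The nearer one (chr11:119042651-119042800), 1738 bp before the start, had values of 33, 15 and 32 in set A and 12, 9 and 10 in set B, a ratio of 2.58 (1.25 to 3.67 over pairs). The farther one (chr11:119042901-119043250) had 58, 38 and 76 against 31, 26 and 18, a ratio of 2.29 (1.23 to 4.22). Of these regions of 150 and 350 bp, 163 bp lie within the 2 kb rule, so the farther one enters only by its edge. Both are separated, but on low values. They border a region of 9450 bp that begins 2438 bp past the span, just beyond the 2 kb rule (chr11:119043351-119052800), with 3042, 3054 and 2925 in set A and 2055, 2020 and 1983 in set B, a ratio of 1.49 (1.42 to 1.54). With a flank of 5 kb, which takes it in, the summed log2 ratio of Cbx8 went from 1.23 to 0.59.

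Cbx2 (chr11:119023019-119031275) carried no region, and neither did the interval between both genes: 23.8 kb without a listed region hold the whole of Cbx2 and Cbx8. The nearest region to Cbx2 (chr11:119018351-119018800), 4219 bp below its span, had 97, 74 and 66 in set A and 46, 19 and 31 in set B. Below Cbx2, 91 of 124 regions within 250 kb were higher in set A, at 1.13-fold (1.04 to 1.20), and above Cbx8 42 of 43 were, at 1.57-fold (1.50 to 1.65). Within 5 Mb of Cbx8, 73.4% of 1611 regions were, at 1.23-fold (1.17 to 1.26).

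Phf19 encodes a Polycomb-like protein that reads H3K36 methylation and guides complex 2 to its targets, and it was the gene with differences in both directions (chr2:34893752-34914353, minus strand). Set A was higher in 9 of its 12 regions and set B in 3, with 5 and 2 of these separated. The sums were 5194, 4956 and 4895 in set A and 4120, 4444 and 4251 in set B. The sets do not overlap, but the ratio of 1.17 (1.10 to 1.26 over pairs) is close to the shift of the whole table, and the log2 ratio went from 0.23 to 0.04 once both sets were scaled to equal sums.

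The regions of Phf19 that were higher in set B are all near the start, beginning 26 to 2476 bp into the gene. The nearest (chr2:34913151-34913950) had 164, 182 and 174 in set B and 135, 142 and 128 in set A, a ratio of 1.28 towards set B (1.15 to 1.42 over pairs). A second (chr2:34910751-34911500) had 128, 149 and 193 in set B and 126, 103 and 95 in set A, a ratio of 1.45 (1.02 to 2.03). Both are separated, the latter narrowly. The remaining one (chr2:34912401-34912850) had 89, 154 and 131 in set B and 132, 83 and 72 in set A, and its sets overlap. A region between them (chr2:34911501-34912400), directly adjacent on both sides, was higher in set A, with 252, 296 and 234 against 223, 249 and 148, and overlaps too.

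Towards the other end of Phf19 the regions were higher in set A. The highest log2 ratio, 0.75, belongs to a region of 600 bp (chr2:34901351-34901950) with 109, 108 and 106 in set A and 50, 41 and 100 in set B. The region with the highest values (chr2:34886751-34892200) lies in the flank past the end of Phf19 and overlaps the neighbouring gene Cutal. It had 2010, 1904 and 1830 in set A and 1498, 1557 and 1498 in set B, a ratio of 1.26 (1.18 to 1.34). Of 2825 listed regions of like length, 60.6% had as high a log2 ratio. On the upstream side, a region of 2750 bp begins 375 bp before the start (chr2:34914351-34917100) and had 783, 738 and 750 against 604, 746 and 718, with a single set B value above the lowest of set A. The 250 bases printed above for Phf19 fall between that region and the one that begins 26 bp into the gene.

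**Figure D3:**
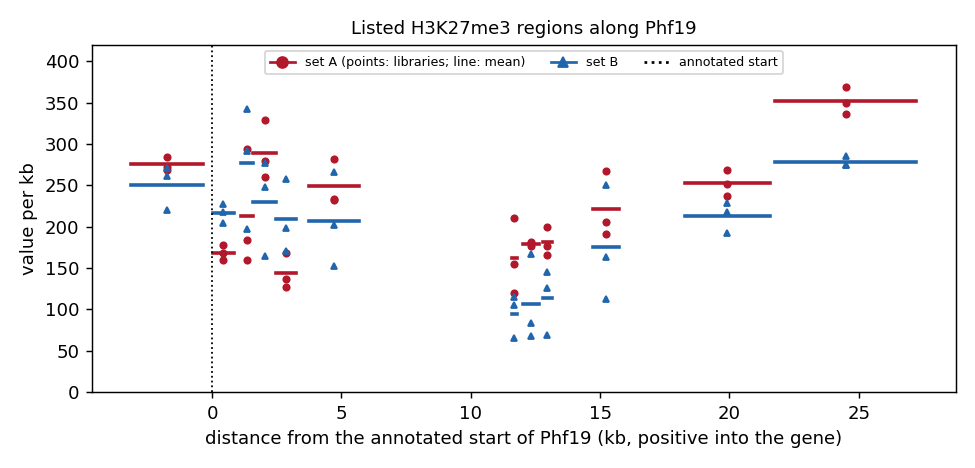
Value per kb of the 12 listed regions of Phf19 by distance in kb from its annotated start (dotted line, positive into the gene), with circles for the 3 libraries of set A, triangles for the 3 of set B and lines for their means. Set B is higher in 3 regions that begin 26 to 2476 bp after the start, and set A in the other 9.

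The ratio of Phf19 lay below those of its surroundings, by more at 5 Mb than within 250 kb. Within 5 Mb, 1019 of 1066 other regions (95.6%) were higher in set A, with sums 1.48-fold higher (1.42 to 1.52 over pairs). That range lies above the range of Phf19, 1.10 to 1.26. Within 250 kb, 17 of 18 regions below the gene were higher in set A, at 1.34-fold (1.22 to 1.46), and 53 of 63 above it, at 1.29-fold (1.22 to 1.35). Both of these ranges overlap that of Phf19, although its ratio of 1.17 lies below both. Whether the gene differs from its near surroundings was not tested.

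Of the DNA methyltransferase genes, Dnmt3a carried regions with the clearer difference. The 4 regions of Dnmt3a (chr12:3801559-3914443) lie at the upstream end of its long span and were all higher in set A and separated. The sums were 1182, 1421 and 1062 in set A and 716, 690 and 684 in set B, a ratio of 1.75 (1.48 to 2.08 over pairs). The main region (chr12:3801001-3804950) had 966, 1129 and 850 in set A and 598, 554 and 554 in set B, a ratio of 1.73 (1.42 to 2.04). Of 5157 listed regions of like length, 11.2% had as high a log2 ratio. The region nearest a RefSeq window start (chr12:3805051-3805750) stops 1230 bp before it and had 110, 126 and 93 against 70, 83 and 64, a ratio of 1.52 (1.12 to 1.97). The highest log2 ratio, 1.91, belongs to a 50 bp region with values of 10, 10 and 7 in set A and 2, 0 and 3 in set B. Regions covered 3.62% of the span, and the main region crosses its lower end, at 3801559. None lay past the first window start, at 3806980, which has 38 CG upstream, or near the window start at 3891744.

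Dnmt3b carried 2 regions, both just upstream of its span (chr2:153649411-153687730), and in neither are the sets separated. The nearer one (chr2:153648201-153649050) stops 399 bp before the start and had 200, 131 and 177 in set A and 169, 58 and 142 in set B. The farther one (chr2:153646851-153648050) had 361, 193 and 257 in set A and 213, 226 and 214 in set B. Summed, the ratio was 1.29 (0.848 to 1.98 over pairs), so single libraries of set B exceeded single libraries of set A. Directly adjacent to the farther one lies a region of 3050 bp, outside the 2 kb rule (chr2:153643801-153646850), that was higher in set B, with 1133, 1050 and 981 against 822, 965 and 869 in set A. Its sets are narrowly separated, and with a flank of 5 kb the summed log2 ratio of Dnmt3b went from 0.37 to -0.07.

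The regions around Dnmt3a were mostly higher in set A, and those around Dnmt3b differed by side. Within 5 Mb of Dnmt3a, 65.9% of 581 regions were higher in set A, at 1.25-fold (1.18 to 1.30 over pairs). The span of Dnmt3a begins at 3801559 on chromosome 12, so this window is cut short on its lower side. Within 250 kb on its lower side, where the regions of the gene lie, all 10 other regions were, at 2.53-fold (2.22 to 3.12), above the range of Dnmt3a itself. These 10 cover 5.35 kb in all, whereas the main region of Dnmt3a alone is 3950 bp long. Short listed regions had larger ratios across the table, and how much of this difference goes with length was not tested. On the upper side of Dnmt3a 81 of 86 were higher in set A, at 1.41-fold (1.32 to 1.48). The top of these pairs meets the lowest pair of Dnmt3a, 1.48. Within 5 Mb of Dnmt3b, 42.1% of 1618 regions were, and the sums stood at 0.923-fold (0.862 to 0.961), that is, higher in set B. Within 250 kb on the lower side of Dnmt3b, where both its regions lie, 56 of 99 regions were higher in set A and the sums were equal, at 1.00-fold (0.955 to 1.04). On the side past its end, 53 of 73 were higher in set B, and the sums stood at 0.788-fold (0.725 to 0.847).

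**Figure D4:**
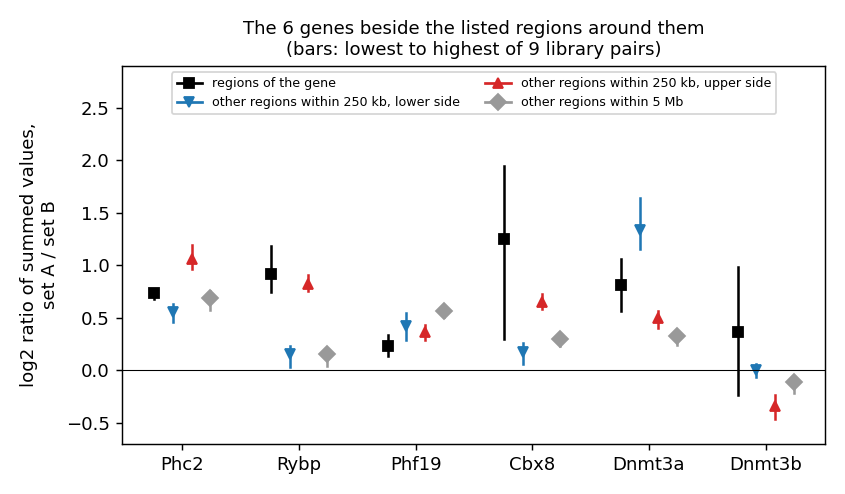
Log2 ratio of summed values, set A over set B, for the regions of each gene (squares), for the other listed regions within 250 kb on its lower and upper side (triangles pointing down and up) and for those within 5 Mb (diamonds), with bars from the lowest to the highest of the 9 library pairs. Phf19 lies below its surroundings at 5 Mb, and Rybp and Dnmt3a above theirs. The 5 Mb window of Dnmt3a is cut short on its lower side by the chromosome end. Within 250 kb Phf19 overlaps both sides, Rybp overlaps its upper side and Dnmt3a lies below its lower side. That lower side of Dnmt3a holds 10 regions covering 5.35 kb in all.

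Cdkn2a, which encodes the inhibitors p16INK4a and p19ARF, and Cdkn2b, which encodes p15INK4b, carried no listed region (chr4:89274473-89294619 and chr4:89306289-89311032). They lie in a stretch of 667 kb with no listed region, which holds Ifne, an interferon gene, and Mtap, an enzyme of methionine salvage, as the only other protein-coding genes. Of the 265947 intervals between neighbouring regions, 473 (0.178%) are as long. The region at its lower edge (chr4:88853651-88867450) had 5735, 5966 and 5860 in set A and 3238, 3406 and 3347 in set B, a ratio of 1.76 (1.68 to 1.84 over pairs). The region at its upper edge (chr4:89534701-89540250) had 1688, 1569 and 1340 against 966, 1014 and 775, a ratio of 1.67 (1.32 to 2.18). Both edges are separated and higher in set A. That was also the main direction around them. Within 5 Mb of Cdkn2a, 76.8% of 1141 regions were higher in set A, at 1.47-fold (1.38 to 1.53). On chromosome 4 as a whole the share was 86.0%. Loss of the Cdkn2a locus is well known in established mouse fibroblast lines, and the labels do not say whether these cells keep it. From a table of differences, a stretch that carries the mark equally in both sets, one without it and one without DNA cannot be told apart.

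Other genes of these pathways were read from 5 lists that hold the 9 genes among 55. In all, 15 of the 55 (27.3%) carried a region, near the 31.2% of all protein-coding genes. In 14 (25.5%) a region was higher in set A, against 26.5% of all genes, and in 5 (9.09%) one was higher in set B, against 18.0%. Summed over their regions, 12 of the 15 were higher in set A, against 69.3% of all genes with a region. Leaving out the 9 genes themselves, 9 of 46 carried a region and 6 of these 9 were higher in set A.

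By role, 7 of 24 subunit genes of complex 1 (29.2%) carried a region, against 31.2% of all protein-coding genes. These were Phc2, Rybp, Cbx8, Cbx7, Ring1, Scmh1 and Bcorl1. All 7 sums were higher in set A, against 69.3% of all genes with a region. Bcorl1, which encodes a corepressor related to BCOR of a variant complex 1, had the largest ratio of the lists on very low values, 50, 37 and 40 in set A against 8, 10 and 16 in set B over 3 regions, a ratio of 3.74 (2.31 to 6.25 over pairs). Scmh1, a homologue of the fly gene Sex comb on midleg, had 102, 75 and 80 against 55, 24 and 40, a ratio of 2.16 (1.36 to 4.25). Like Phc2, Scmh1 lies on chromosome 4, where 86.0% of listed regions were higher in set A. Cbx7 carried 6 regions, 5 of them higher in set A, at 1.27-fold (1.04 to 1.69). The single region of Ring1, a ubiquitin ligase of the complex, overlapped between the sets.

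Of 13 subunit genes of complex 2, Phf19 and Epop (15.4%) carried a region, against 31.2% of all protein-coding genes. Neither Ezh2, the catalytic subunit, nor Eed or Suz12 carried one. Epop, an accessory subunit, had sums of 438, 412 and 411 in set A and 504, 525 and 448 in set B, higher in set B at 1.17-fold (1.02 to 1.28 over pairs). Of 3 H3K27 demethylase genes, Kdm6b (33.3%) carried 1 region, 1.24-fold higher in set B with overlapping values. Of 8 genes of DNA methylation, Dnmt3a, Dnmt3b, Dnmt3l and Tet3 carried regions, and all 4 sums were higher in set A. Dnmt3l, a cofactor of DNMT3A without catalytic activity, carried 11 regions, all higher in set A, against 59.5% of all listed regions. Only 6 of the 11 were separated, a share below the 65.1% of all listed regions. Its sums were 2090, 2210 and 2081 in set A and 1335, 1460 and 1350 in set B, a ratio of 1.54 (1.43 to 1.66). Tet3, which oxidises methylcytosine, had low values of 57, 56 and 43 in set A and 39, 20 and 29 in set B, a ratio of 1.77 (1.10 to 2.85). Of 7 cyclin-dependent kinase inhibitor genes, only the imprinted gene Cdkn1c (14.3%) carried regions, 3 in number, with sums at 0.964-fold (0.809 to 1.16).

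**Figure D5:**
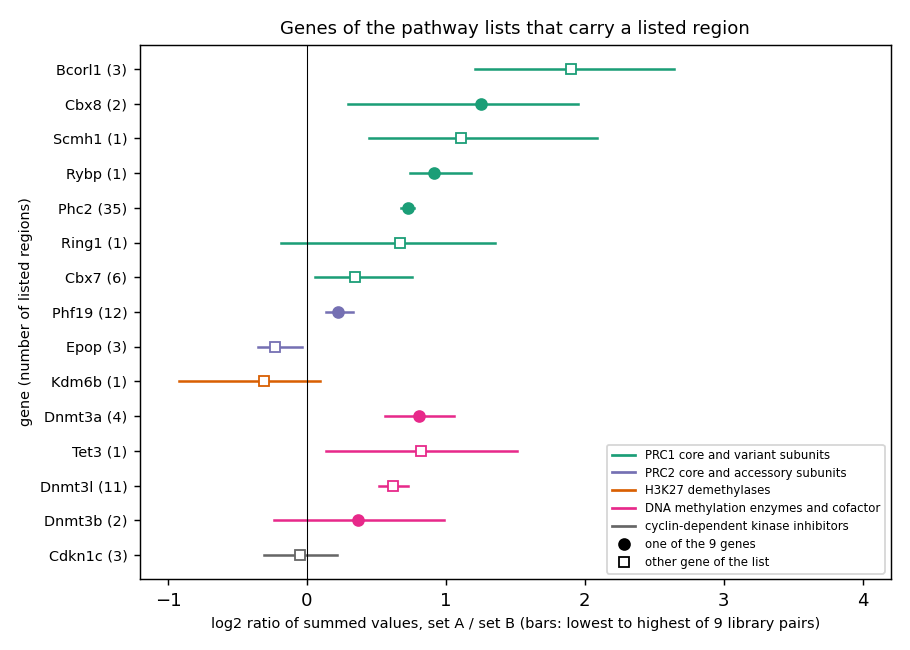
Log2 ratio of summed values, set A over set B, of the 15 genes of the 5 pathway lists that carry a listed region, with bars from the lowest to the highest of the 9 library pairs. Filled circles are among the 9 genes, open squares are other genes of the lists, and the number of regions stands in brackets. Ratios lie above 0 for 12 genes and below it for Epop, Kdm6b and Cdkn1c, and the bars of Ring1, Kdm6b, Dnmt3b and Cdkn1c cross 0.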

How the data were processed

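The deposited table of the whole series lists 265968 regions. The submitters' processing notes name the build GRCm38, BWA 0.7.17, Trimmomatic 0.36 and CASAVA; how regions were called, scaled and compared with the inputs was not given in the sources used here. A deposited column of whole numbers gives 3 values per set, joined to what appears to be their −log10 p, which was ignored here apart from 1 alternative; the highest p is 0.10. The values were taken as scaled signal, and no count model was fitted. A score column deposited by the authors is constant and was not used.

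Chromosome, start and end of genes came from RefSeq GRCm38.p6. The log2 ratio is of set means with a pseudocount of 1, and fold ratios are of plain sums. Scripts used Python 3.11.15, numpy 2.4.6 and matplotlib 3.10.9. The overlap step was tested against a brute-force search, with 0 of 300 genes differing. The genes and lists were chosen with earlier results of these data known. Named were all 9 genes, their regions with the highest sum, highest and lowest log2 ratio and nearest start, and list genes with a region; of the list genes outside the 9, Bcorl1, Scmh1 and Tet3 have the largest log2 ratios. Other regions, and the values of Dnmt3l and Epop, were chosen for position or value after their values were seen. Alternatives covered the flank, low values, p, pseudocount, scaling and single libraries.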

Additional observations from a re-analysis of the deposited data

How the results depend on the processing

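No paired analysis was possible because the values of the table carry no replicate numbers. Summed over the 9 genes, the log2 ratio of 0.65 was 0.46 with the sets scaled to equal sums, 1.00 as the median over regions and 0.42 without Phc2, an alternative chosen after seeing the data. Without Phc2, 18 of 21 regions (85.7%) were higher in set A, against 59.5% of the table, and 14 (66.7%) were separated, against 65.1%. With no flank, 3 genes had a higher sum in set A in place of 6, since Rybp, Cbx8 and Dnmt3b carry regions in their flanks only. With 5 kb the number was again 6, with Cbx2 entering and Dnmt3b leaving. The list genes with a region numbered 7 of 55 (12.7%) with no flank, 15 with 2 kb and 27 (49.1%) with 5 kb, against 26.6%, 31.2% and 39.3% of all protein-coding genes. The summed log2 ratio of Dnmt3b turned to -0.07 with 5 kb, which adds the adjacent region higher in set B, and that of Cbx8 went from 1.23 to 0.59, with the region of 9450 bp added. Leaving out single libraries gave log2 ratios of 0.64 to 0.67 for the sum, 0.15 to 0.55 for Dnmt3b and 1.01 to 1.47 for Cbx8. Each time 53 regions were higher in set A, and 48 to 52 were separated, since fewer values must then be ordered. The matching separated share over all listed regions was not computed, so these counts cannot be read against the table. Depth is unknown, which limits the regions with values near 0.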

Other observations

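Around the 6 genes with a region, the listed regions had different median values on each side. At Rybp the median log2 ratio of regions within 250 kb was 0.37 below the gene and 1.24 above it. At the Cbx2 and Cbx8 pair it was 0.26 below Cbx2 and 0.72 above Cbx8. At Dnmt3a it was 1.51 below the gene, from 10 regions, and 0.64 above it. At Phf19 it was 0.84 below the gene, from 18 regions, and 0.39 above it. At Dnmt3b it was 0.24 below the gene and -0.39 above it. At Phc2 both sides were higher in set A, with 77 of 80 regions below and 51 of 51 above, and medians of 0.67 and 1.38. The windows were chosen after the data were seen, and none of these differences was tested.

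Just upstream of Dnmt3a, beyond the 2 kb rule, 5 more regions lie within 5 kb, all higher in set A. The longest of them (chr12:3796551-3797800) had 335, 322 and 256 in set A and 115, 86 and 113 in set B, a ratio of 2.91 (2.23 to 3.90 over pairs), above the 1.73 of the main region of the gene.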
